A study of Homo sapiens with 15 samples.

Results

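Open chromatin was examined at 10 human genes whose products sense or handle foreign-looking RNA and DNA inside the cell: RIGI, IFIH1, DHX58, MAVS, TLR3, ZBP1, EIF2AK2, ADAR, CGAS and STING1. The genes were taken as a fixed list, and every accessible region that lay inside one of them or within 50 kb of either end was kept. This gave 157 of the 222814 regions found in the series, with no region shared between neighbourhoods. The data are ATAC-seq peak lists, made with a transposase that cuts exposed DNA, from the HPAF-II line of human pancreatic adenocarcinoma cells, which depends on WNT ligands. Lgk974 blocks porcupine, the enzyme that lipidates WNT proteins for secretion, and DMSO is its solvent. The libraries comprised 4 with 1 µM Lgk974 and 4 with DMSO at 24 h, and 3 with 1 µM Lgk974 and 4 with DMSO at 48 h. The comparison asks whether WNT inhibition changed which regions were accessible.

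RIGI, IFIH1 and DHX58 are cytosolic RNA helicases that bind double-stranded RNA. RIGI and IFIH1 signal through the mitochondrial adaptor MAVS, whereas DHX58 lacks the signalling domain and modulates the other two. TLR3 senses double-stranded RNA in endosomes. CGAS binds cytosolic double-stranded DNA and makes the messenger cyclic GMP-AMP, which activates STING1 on the endoplasmic reticulum. ZBP1 recognises nucleic acids in the left-handed Z form and can engage the kinase RIPK3. EIF2AK2, the kinase PKR, halts translation when it binds double-stranded RNA, and ADAR edits adenosine to inosine in such RNA, which keeps cellular transcripts from being sensed. Several of these genes are themselves interferon-stimulated, through promoter elements bound by STAT and IRF factors.

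Promoter sequence was at hand for 6 of the 10 genes (RIGI, IFIH1, MAVS, TLR3, EIF2AK2 and ADAR). The 4 windows below, from RefSeq on GRCh38.p14, hold an interferon-type GAAA repeat and span 250 bases before to 50 bases after the annotated start. They are shown because accessibility over the element differed among them. Capitals mark each GAAA repeat, or its reverse complement, with 1 or 2 bases between the GAAA blocks. The motifs were chosen after the sequences had been read.
RIGI, chr9:32526147-32526446, minus strand: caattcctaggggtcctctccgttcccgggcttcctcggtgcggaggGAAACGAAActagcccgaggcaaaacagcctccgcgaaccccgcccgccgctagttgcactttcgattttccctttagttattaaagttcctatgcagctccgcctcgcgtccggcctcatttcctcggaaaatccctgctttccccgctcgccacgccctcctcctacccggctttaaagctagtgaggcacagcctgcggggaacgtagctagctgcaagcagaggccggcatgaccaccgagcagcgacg
IFIH1, chr2:162318635-162318934, minus strand: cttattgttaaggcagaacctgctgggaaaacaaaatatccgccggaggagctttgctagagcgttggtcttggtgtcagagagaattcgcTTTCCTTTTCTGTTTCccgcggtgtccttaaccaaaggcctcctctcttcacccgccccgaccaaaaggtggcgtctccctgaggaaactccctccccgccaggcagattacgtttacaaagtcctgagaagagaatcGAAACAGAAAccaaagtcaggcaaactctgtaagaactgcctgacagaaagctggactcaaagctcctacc
EIF2AK2, chr2:37156931-37157230, minus strand: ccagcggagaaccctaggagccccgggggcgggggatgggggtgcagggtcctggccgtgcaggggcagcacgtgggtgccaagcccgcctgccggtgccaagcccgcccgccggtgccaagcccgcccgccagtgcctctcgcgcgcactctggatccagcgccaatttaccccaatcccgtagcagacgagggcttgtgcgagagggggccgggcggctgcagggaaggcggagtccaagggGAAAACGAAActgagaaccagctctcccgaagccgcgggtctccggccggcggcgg
TLR3, chr4:186068906-186069205, plus strand: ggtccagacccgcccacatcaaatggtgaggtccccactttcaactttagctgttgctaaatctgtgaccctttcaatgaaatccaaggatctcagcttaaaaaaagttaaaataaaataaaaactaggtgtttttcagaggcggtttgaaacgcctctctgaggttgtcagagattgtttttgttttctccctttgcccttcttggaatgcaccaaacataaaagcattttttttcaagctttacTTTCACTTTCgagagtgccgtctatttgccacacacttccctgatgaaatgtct

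The interferon-stimulated response element was searched on both strands as a GAAA pair with any 2 bases between, with positions counted from 1 at the start site and no base 0. It was present in 3.57% of 35116 RefSeq promoter windows. EIF2AK2 held 1 match, GAAAACGAAA, at bases -6 to 4, and peaks covered it in 15 of 15 libraries. IFIH1 held 3 matches. GAAACAGAAA lay at bases -21 to -12, and TTTCCTTTTC and TTTCTGTTTC overlapped each other between bases -159 and -144. Peaks covered all 3 in 15 of 15 libraries. TLR3 held 1 match on the opposite strand, TTTCACTTTC, at bases -4 to 6, and peaks covered it in 1 Lgk974 libraries and 3 DMSO libraries. The RIGI window held none, but did hold the tighter repeat GAAACGAAA at bases -203 to -195, covered in 15 of 15 libraries. A GAAA pair with any 1 base between occurred in 3.12% of windows. TLR3 alone of the 6 genes held the gamma-activated form TTCNNNGAA (7.66% of windows), as TTCAATGAA and TTCTTGGAA. None of the 8 windows of the 6 genes held CTTTGAT, a TCF motif found in 2.62% of windows. A match describes letters only.

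Base composition also differed among these promoters. TLR3 had the lowest GC content of the 6 genes, 40.3% with 5 CpG dinucleotides, and its window carried a peak in 1 Lgk974 libraries and 4 DMSO libraries. EIF2AK2 had 72.3% GC and 30 CpG, MAVS 71.7% and 34, and RIGI 60.3% and 27. IFIH1 had 50.7% and 12. Each of these windows carried a peak in 15 of 15 libraries. The median over all windows was 58.7% GC and 14 CpG. ADAR has 3 RefSeq windows. The upstream pair, which overlap, had 47.7% and 49.7% GC, and each carried a peak in 6 Lgk974 libraries and 8 DMSO libraries. The third lies within the gene, had 53.0% GC, and carried one in 4 Lgk974 libraries and 4 DMSO libraries.

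The lists held 53610 to 127886 peaks, and the 2 shortest, with 53610 and 57708 peaks, were both Lgk974 libraries, replicate 3 at 24 h and replicate 3 at 48 h. Read counts were not used, so depth is unknown, and a region without a peak may be open below the threshold of that list. As a check of the cell type, ends of 6 of 6 epithelial marker genes carried peaks in 15 of 15 libraries, against 1 of 6 fibroblast and 0 of 3 endothelial genes. Ends of the immune genes CD3E, CD14 and LYZ did so as well, and that of PTPRC carried a peak in 2 libraries. The ends of the fibroblast genes COL1A2 and PDGFRB carried a peak in 11 and 10 libraries, and that of the endothelial gene CDH5 in 1. The ends of COL3A1, DCN, LUM, PECAM1 and VWF carried none. The labels do not say whether the replicates of a group were cultured separately, so p-values cover the spread between these libraries, which may be technical.

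The sensing genes were mostly open at an end. For 8 of 10 genes, all except TLR3 and ZBP1, a peak lay within 1 kb of an annotated end in 15 of 15 libraries, where 55.7% of 19974 protein-coding genes had this, and 62.6% had one in 13 to 15 libraries. The 157 regions comprised 13 at member gene ends, 27 inside the genes and 117 outside. Regions at the ends were wide, with a median of 1337 bp, against 364 bp for those inside, 469 bp for those outside and 395 bp over all regions. Altogether 40 regions (25.5%) were called in 15 of 15 libraries, where 15.9% of all regions were, and 44 (28.0%) in 1 library, where 39.5% were. Of the 40, 32 lay away from the member ends, 14 of them at the end of another gene. The map of the neighbourhoods shows these regions by distance and calling frequency.

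**Figure D1:**
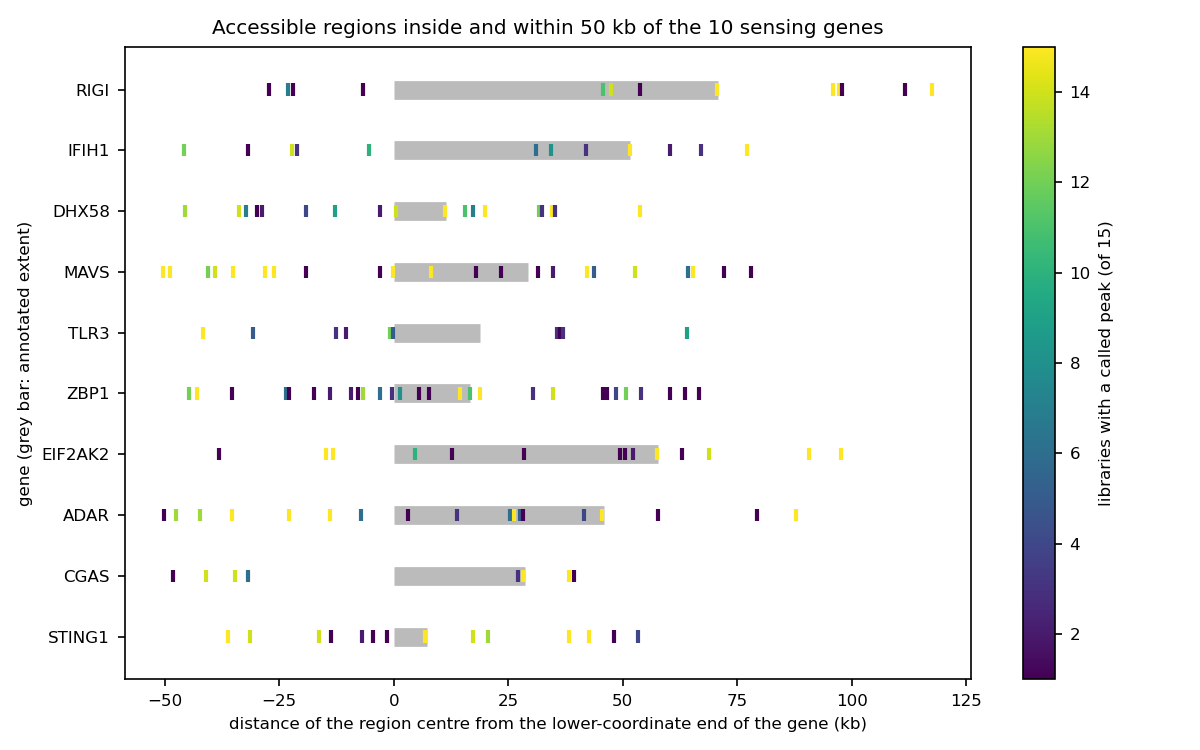
Each tick is 1 of the 157 accessible regions, placed by the distance in kb of its centre from the lower-coordinate end of the gene; grey bars are the annotated genes and colour gives the number of the 15 libraries with a peak. RIGI, IFIH1, DHX58, EIF2AK2, ADAR, CGAS and STING1 carry a region called in 15 libraries at the upper-coordinate end, whereas TLR3 has none within its own gene body or ends.

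At the RNA helicases, the start of RIGI lay in a region of 1872 bp (chr9:32524998-32526869), called in 15 of 15 libraries. To place a peak within its own list, peaks were ranked by the authors' −log10 q, and a peak in the top 10% is stronger than 90% of that list. The RIGI peak stood in the top 17.9, 19.1, 23.1 and 12.2% of the Lgk974 lists at 24 h and in the top 9.67, 8.66, 12.1 and 21.4% of the DMSO lists at 24 h. Peaks at 48 h stood in the top 9.86, 7.59 and 43.1% with Lgk974 and in the top 11.3, 11.7, 13.3 and 16.7% with DMSO. The groups overlapped at both times, and the weakest place, 43.1%, belonged to the second-shortest list, Lgk974 48 h replicate 3. The summit lay a median of 106 bp upstream of the annotated start.

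The start of IFIH1 lay in a region of 1470 bp (chr2:162317834-162319303) that also covers an end of GCA, so the 2 genes cannot be told apart there. It was called in 15 of 15 libraries. Its peak stood in the top 5.83, 10.8, 18.2 and 7.10% with Lgk974 and 9.40, 10.1, 18.5 and 18.4% with DMSO at 24 h. At 48 h it stood in the top 8.24, 10.5 and 26.7% with Lgk974 and 8.27, 7.37, 10.6 and 12.2% with DMSO. Here too the groups overlapped, with the shortest lists giving the weakest place in each Lgk974 group. The IFIH1 neighbourhood also held the strongest peak near any of the 10 genes by median place, a region inside GCA, 24996 bp from IFIH1, that stood in the top 0.0912 to 2.04% of every list (median 0.443%).

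DHX58 carried a region at both ends. The upper-coordinate end (chr17:42111827-42113163), which also covers an end of the histone acetyltransferase gene KAT2A, was called in 15 of 15 libraries. It stood in the top 12 to 39.6% with Lgk974 (median 14.1%) and 15 to 27.5% with DMSO (median 21.8%). The 2 weakest Lgk974 places, 39.6 and 23.4%, came from the 2 shortest lists. The other Lgk974 places, 12 to 14.5%, were stronger than any DMSO place. This was seen after the values were read and was not tested. The lower-coordinate end (chr17:42101514-42102246) had a weaker peak, called in 3 of 4 Lgk974 libraries and 4 of 4 DMSO libraries at 24 h and in 3 of 3 Lgk974 libraries and 4 of 4 DMSO libraries at 48 h. The missing call was in Lgk974 24 h replicate 3, the shortest list. The table of genes gives no strand for DHX58, so neither end is called its start.

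TLR3 differed from the helicases in having no constitutive peak at its ends. The region over its start (chr4:186068565-186069463) was called in 0 of 4 Lgk974 libraries and 2 of 4 DMSO libraries at 24 h and in 1 of 3 Lgk974 libraries and 2 of 4 DMSO libraries at 48 h. The difference over both times was -33.3 percentage points (exact permutation p = 0.296). The 5 peaks stood in the top 70.0% with Lgk974, and in the top 58.4, 63.5, 74.9 and 80.0% with DMSO, and none remained when every list was limited to its 53610 strongest peaks. A second region, 663 bp upstream of the gene (chr4:186067941-186068493), was called in 3 of 4 Lgk974 libraries and 3 of 4 DMSO libraries at 24 h and in 2 of 3 Lgk974 libraries and 4 of 4 DMSO libraries at 48 h (-16.7 points, exact p = 0.459). Neither difference had an exact p under 0.05, and no split of the second region's calls could have given one. The 1 region of this neighbourhood called in 15 of 15 libraries lay 41229 bp from the gene.

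Among the DNA and Z-form sensors, the upper-coordinate end of CGAS (chr6:73451204-73452719) was called in 15 of 15 libraries. Its peak was of middling strength, in the top 42.0, 29.5, 54.4 and 23.3% with Lgk974 and 25.2, 43.0, 32.6 and 37.4% with DMSO at 24 h. At 48 h it stood in the top 32.1, 36.5 and 67.3% with Lgk974 and 36.6, 36.4, 39.7 and 35.4% with DMSO. These groups overlapped at both times. With 8 regions, CGAS had the fewest of the 10 neighbourhoods.

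ZBP1 had the most regions, 28, and 11 of them were called in 1 library. Its upper-coordinate end (chr20:57620267-57620834) was called in 3 of 4 Lgk974 libraries and 2 of 4 DMSO libraries at 24 h and in 3 of 3 Lgk974 libraries and 3 of 4 DMSO libraries at 48 h (+25 points, exact p = 0.541). A region 79 bp beyond its lower-coordinate end (chr20:57603310-57603773) was called in 1 of 4 Lgk974 libraries and 0 of 4 DMSO libraries at 24 h and in 2 of 3 Lgk974 libraries and 0 of 4 DMSO libraries at 48 h (+45.8 points, exact p = 0.0714). All of its calls were with Lgk974, the most extreme split possible, so no p under 0.05 could arise with all libraries. Without Lgk974 48 h replicate 3 the exact p was 0.0333 (+62.5 points). In lists of equal length this region was called in 0 of 15 libraries. Both ends were weak, whereas 3 regions away from the ends were called in 15 of 15 libraries. One lay inside the gene (chr20:57617881-57618578), in the top 6.12 to 13% of every list. Another lay 2013 bp outside it (chr20:57622439-57623087), in the top 2.74 to 15.5%. The last lay 42595 bp away at an end of PCK1 (chr20:57560613-57561257), in the top 8.76 to 27.7%.

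The 2 adaptor genes had strong constitutive ends. The start of MAVS (chr20:3845525-3847614) was called in 15 of 15 libraries, in the top 15.3, 15.2, 29.9 and 23.9% with Lgk974 and 21.9, 13.5, 9.76 and 26.0% with DMSO at 24 h. At 48 h it stood in the top 15, 17.4 and 29.6% with Lgk974 and 21.5, 18, 23.5 and 24.6% with DMSO. The upper-coordinate end of STING1 (chr5:139481473-139483073) was also called in 15 of 15 libraries, in the top 8.89 to 28.8% with Lgk974 (median 11.9%) and 10.4 to 21.5% with DMSO (median 15.3%). For both genes the groups overlapped. MAVS had 9 regions called in 15 of 15 libraries, the most of the 10 genes.

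The 2 effectors also had constitutive regions at their starts. The EIF2AK2 start (chr2:37156061-37157287) was called in 15 of 15 libraries, in the top 15.4, 13.5, 41.4 and 15.1% with Lgk974 and 19.5, 12, 1.86 and 22.8% with DMSO at 24 h. Its places at 48 h were the top 17.4, 6.20 and 36.9% with Lgk974 and 29.8, 31.8, 14.4 and 18.8% with DMSO. The summit lay a median of 53 bp upstream of the start. The region at the ADAR start (chr1:154626915-154628260) was called in 15 of 15 libraries. It was the weakest of the constitutive start regions in the 2 shortest lists, in the top 60.8% of Lgk974 24 h replicate 3 and 80.5% of Lgk974 48 h replicate 3. In the other libraries it stood in the top 19.6 to 44.3% with Lgk974 and 20.1 to 42.3% with DMSO. Its summit lay inside the gene, a median of 542 bp from the annotated start. Each window at the upstream starts carried a peak in 6 Lgk974 libraries and 8 DMSO libraries. A further constitutive region inside ADAR (chr1:154607755-154608876) was stronger, with a median place in the top 19%. Merged over the libraries, it reaches the downstream RefSeq start, but the window at that start carried a peak in 8 libraries only.

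**Figure D2:**
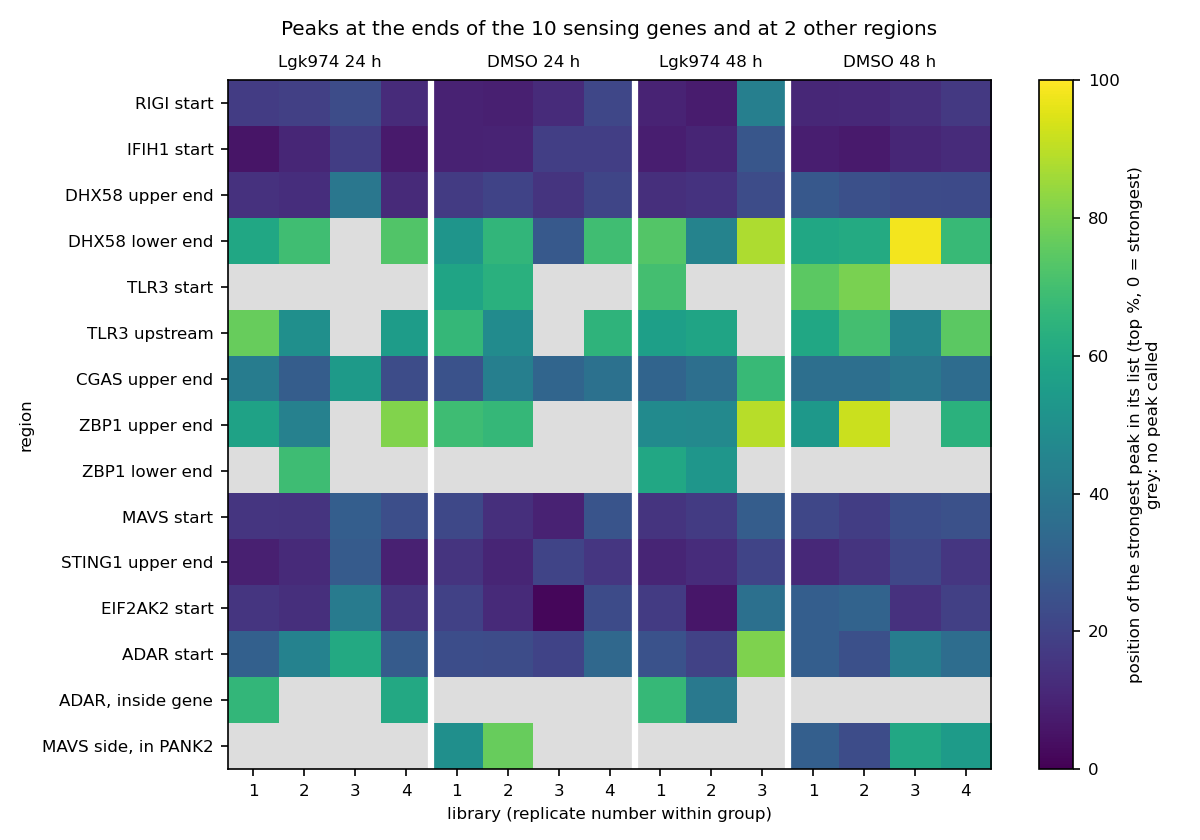
Rows are the regions at the ends of the 10 sensing genes and 2 further regions, columns are the 15 libraries by group and replicate number, and colour gives the place of the strongest peak in its own list (top %, where 0 is strongest); grey marks no peak. The rows for the start regions of RIGI, IFIH1, MAVS, EIF2AK2 and ADAR are filled in all 15 libraries. The row for the TLR3 start is filled in 5, and the 2 lowest rows are filled on 1 side of the treatment.

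The member's own end was the strongest constitutive region of its neighbourhood for 2 of 10 genes, RIGI and STING1. For 5 genes the strongest region lay at an end of another gene: RAB5C near DHX58, PANK2 near MAVS, HEATR5B and GPATCH11 near EIF2AK2, UBE2Q1 near ADAR, and MTO1 near CGAS. The remaining 3 were the GCA region, the region outside ZBP1 and the distant region of TLR3. These regions, the PCK1 region and the constitutive ones inside ZBP1 and ADAR, were singled out after their values were seen.

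Between Lgk974 and DMSO, no region near the sensing genes differed in calling frequency past adjustment. Of the 157 regions, 46 were called in 3 to 12 libraries and were tested. The test was a two-sided exact permutation of treatment labels within each time (2450 assignments). Its smallest possible p was 0.000408 at best, and larger for regions with few or many calls. For some of the 46, no split of the calls could give a p under 0.05. At an unadjusted p under 0.05, 1 of the 46 was called more often with Lgk974, where 2.96% of 60356 tested regions were. Another 1 was called less often, where 3.08% were. Both counts lie near the background. With Benjamini-Hochberg adjustment over all tested regions, 0 of the 46 and 0% of all passed, with a smallest adjusted p of 0.543 among the 46 and 0.418 overall. The difference was positive for 19 and negative for 27 of the 46. Its median was -6.25 percentage points, beside -4.17 over all tested regions.

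The region called less often lies inside PANK2, a pantothenate kinase gene, 34536 bp from MAVS (chr20:3910654-3911306). It was called in 0 of 4 Lgk974 libraries and 2 of 4 DMSO libraries at 24 h and in 0 of 3 Lgk974 libraries and 4 of 4 DMSO libraries at 48 h. The 6 DMSO peaks stood in the top 49.9 and 76.7% of their lists at 24 h and in the top 30.4, 23.4, 60.1 and 54.9% at 48 h. No Lgk974 library had a peak, and at 48 h the groups did not overlap. The difference was -75 percentage points (exact permutation p = 0.00612, adjusted p = 0.543). Limited to the 53610 strongest peaks of each list, it was called in 0 of 7 Lgk974 libraries and 5 of 8 DMSO libraries. The difference lay between -83.3 and -66.7 points with any 1 library left out.

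The region called more often lies inside ADAR (chr1:154623402-154623758), between its upstream and internal RefSeq starts. It was called in 2 of 4 Lgk974 libraries and 0 of 4 DMSO libraries at 24 h and in 2 of 3 Lgk974 libraries and 0 of 4 DMSO libraries at 48 h. The 4 peaks were of low rank, in the top 66.1 and 60.5% of the Lgk974 lists at 24 h and 67.1 and 40.4% at 48 h. The Lgk974 libraries without a peak were replicates 2 and 3 at 24 h and replicate 3 at 48 h. The difference was +58.3 percentage points (exact permutation p = 0.0306, adjusted p = 0.666). With any 1 library left out the difference was 50 to 75 points. The unadjusted call was lost in 12 of 15 such cases, and was kept without any 1 of the 3 Lgk974 libraries that had no peak there. In lists of equal length the region was called in 1 Lgk974 library and 0 DMSO libraries.

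**Figure D3:**
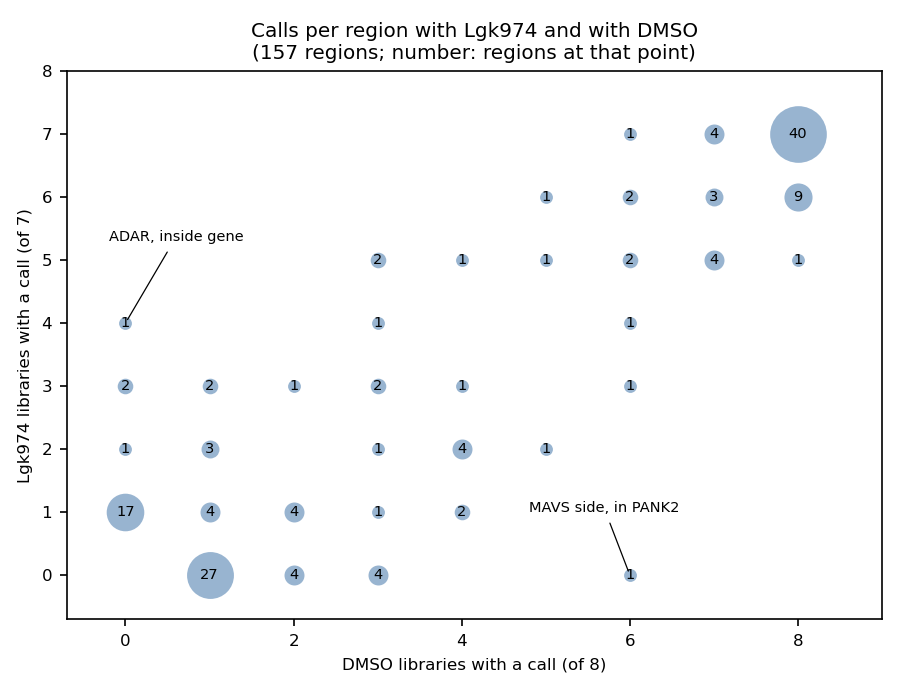
Each circle gives how many of the 157 regions were called in a given number of Lgk974 libraries (vertical, of 7) and DMSO libraries (horizontal, of 8); circle area grows with the printed count. The 40 regions at the top right were called in 15 of 15 libraries, the region inside ADAR sits at 4 Lgk974 and 0 DMSO libraries, and the region in PANK2 on the MAVS side at 0 Lgk974 and 6 DMSO libraries.

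Complete separation by treatment was as rare. At 24 h, 90 regions were called in some but not all libraries. Of these, 0 held a peak in each library of 1 treatment and in no library of the other. Over the series, 0.179% of such regions did (0.0479% with peaks under Lgk974 and 0.131% with peaks under DMSO). At 48 h, 1 of 79 such regions was separated, the PANK2 region with its peaks under DMSO. Over the series, 0.924% were (0.35% with peaks under Lgk974 and 0.574% with peaks under DMSO). Each base includes regions called in too few or too many libraries to separate. The count at 48 h was 2 without Lgk974 replicate 1 and 3 without Lgk974 replicate 3. With fewer Lgk974 libraries any region separates more easily, so the 0.924% is not the base for these 2 counts. Without replicate 3 of Lgk974 24 h, Lgk974 48 h and DMSO 24 h, 6.55% of 93360 regions were separated at 48 h. With all libraries the smallest exact p was 0.0286 at either time, and no adjusted test was made at a single time.

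The comparison of 48 h with 24 h was made over both treatments. A higher calling frequency at 48 h had an unadjusted exact p under 0.05 for 1 of the 46 regions, where 1.25% of all tested regions had this, and a lower one for 0, where 0.504% did. After adjustment, 0 of 46 regions and 0% of all passed. The 1 region lies 23410 bp from ZBP1, starts at chromosome 20 base 57580034, and was named after its value was seen. At 48 h it was called in 2 of 3 Lgk974 libraries and 3 of 4 DMSO libraries, and at 24 h in 0 of 4 Lgk974 libraries and 1 of 4 DMSO libraries (exact permutation p = 0.0388, adjusted p = 1). With 1 library left out, the count of regions called more often at 48 h was 0 in 12 of 15 cases. Time cannot be told apart from whatever else differed between the 2 sets of libraries.

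Each neighbourhood was also summed per library, as its called regions per 10000 called regions of that library, which allows for list length on average only. None of the 10 genes reached an unadjusted exact p under 0.05 between Lgk974 and DMSO, where the share was higher for 5.05% and lower for 3.26% of 56245 RefSeq genes, and 0 genes passed adjustment (smallest adjusted p over all 0.213). The mean difference was positive for 7 genes and negative for 3, with a median of 0.0403 beside 0.00296 over all genes. These medians are of unlike sets. The difference can be larger where a neighbourhood holds more regions, and the genes were not matched for this. A p that misses the threshold does not show equal shares.

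The smallest p belonged to ADAR and STING1. The STING1 share was 0.990, 0.951, 1.38 and 0.953 with Lgk974 and 0.784, 0.790, 0.575 and 1.10 with DMSO at 24 h. At 48 h it was 0.804, 0.930 and 1.47 with Lgk974 and 0.907, 0.889, 0.988 and 0.969 with DMSO. The highest value of each Lgk974 group came from the shortest list of that group, and the groups overlapped. The difference was 0.193 (exact permutation p = 0.112, adjusted p = 0.715), with 5 of 7 Lgk974 libraries above the DMSO mean of their time. It was 0.00127 (exact p = 0.98) without the 3 libraries that stood apart in list length and earlier checks (replicate 3 of Lgk974 24 h, Lgk974 48 h and DMSO 24 h), and 0.0928 without Lgk974 48 h replicate 3 alone. Without DMSO 24 h replicate 4 the exact p was 0.0416, and without Lgk974 48 h replicate 1 it was 0.0286. For ADAR the share averaged 1.23 ± 0.245 with Lgk974 and 1.01 ± 0.0898 with DMSO at 24 h (SD, n = 4 each), and 1.16 ± 0.263 (n = 3) with Lgk974 and 1.02 ± 0.144 (n = 4) with DMSO at 48 h. The difference was 0.180 (exact permutation p = 0.0935), with 5 of 7 Lgk974 libraries above the DMSO mean, and 0.0276 (exact p = 0.673) without the same 3 libraries. Without DMSO 48 h replicate 4 the exact p was 0.0386, and the difference was 0.104 without Lgk974 48 h replicate 3.

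ZBP1, the Z-form sensor, had the largest positive difference, 0.203 (exact permutation p = 0.225), from shares of 0.990, 1.37, 0.789 and 0.953 with Lgk974 and 1.08, 0.889, 1.23 and 0.822 with DMSO at 24 h. At 48 h its shares were 1.31, 1.35 and 1.83 with Lgk974 and 1.36, 1.38, 0.618 and 1.09 with DMSO. The groups overlapped at both times. The ZBP1 difference was 0.119 without Lgk974 48 h replicate 3 and 0.120 without DMSO 48 h replicate 3, and without DMSO 24 h replicate 4 it was 0.172, below 0.240 for STING1. TLR3 and IFIH1 had the largest negative differences, -0.113 (exact p = 0.144) and -0.108 (exact p = 0.308), with 1 of 7 Lgk974 libraries above the DMSO mean for each. The TLR3 difference was -0.0717 without DMSO 24 h replicate 2. For IFIH1 it was -0.0494 without the same library, -0.0538 with Lgk974 48 h replicate 3 left out and -0.0579 with DMSO 48 h replicate 2 left out. RIGI differed least, by 0.000464 (exact p = 0.993).

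**Figure D4:**
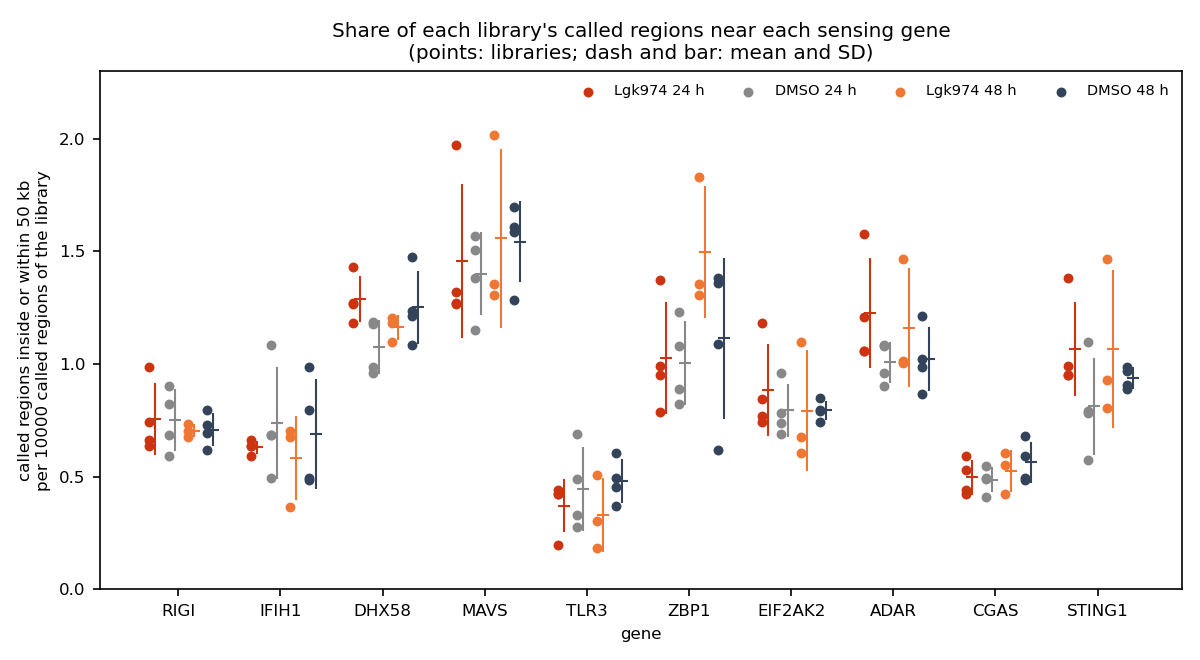
Points are libraries, coloured by group, and give the called regions inside or within 50 kb of each gene per 10000 called regions of that library; the dash and bar are the mean and SD of the group (n = 4, 4, 3 and 4). Lgk974 and DMSO points overlap for each of the 10 genes, and the high MAVS, ADAR and STING1 points, at 1.97, 1.58 and 1.38 at 24 h, belong to Lgk974 replicate 3.

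The wider pathway was covered by 40 further genes. An end carried a peak in 15 of 15 libraries for 32 of 40, where 55.7% of 19974 protein-coding genes had this. Such a peak may also lie at an end of a neighbouring gene, which was not examined for these 40. The end of TLR9, an endosomal DNA sensor, carried one in 4 Lgk974 libraries and 8 DMSO libraries, and that of AIM2, a cytosolic DNA sensor of the inflammasome, in 1 Lgk974 and 1 DMSO library. The ends of TLR7, TLR8, RNF135, DDX60, TANK and IFNB1, the interferon beta gene, carried none, and starts that lie inside an annotated gene were not counted as ends.

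Shares per 10000 called regions had an unadjusted exact p under 0.05 for 3 of the 40 genes, all higher with Lgk974, where 5.05% of all genes were higher, and 0 after adjustment. The necroptosis kinase gene RIPK3 averaged 1.54 ± 0.372 with Lgk974 and 1.25 ± 0.172 with DMSO (SD, n = 7 and 8; difference 0.312, exact permutation p = 0.0147, adjusted p = 0.432). OAS3, which makes the second messenger that activates RNase L, averaged 1.64 ± 0.124 with Lgk974 and 1.41 ± 0.211 with DMSO (difference 0.225, exact permutation p = 0.0363, adjusted p = 0.552). The ubiquitin ligase gene TRAF6 averaged 0.839 ± 0.104 with Lgk974 and 0.692 ± 0.147 with DMSO (difference 0.139, exact permutation p = 0.0494, adjusted p = 0.598). The share was above the DMSO mean in 7 of 7 Lgk974 libraries for RIPK3 and OAS3 and in 6 of 7 for TRAF6. The median difference over the 40 genes was 0.0446, beside 0.00296 over all genes, again without matching for the number of regions. Over the 6 epithelial marker genes the median difference was 0.231, positive for 6 of 6. The neighbourhoods of KRT8 and KRT18 share regions, so the 6 are not separate observations. KRT19 had an unadjusted exact p under 0.05 (1.46 ± 0.353 with Lgk974 and 1.21 ± 0.116 with DMSO, SD, n = 7 and 8, exact permutation p = 0.042). The part of such a shift in the pathway values was not tested.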

How the data were processed

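Accessible chromatin was measured in 15 HPAF-II libraries; the growth notes in the labels also describe KATO III cells, which no library is labelled as. Per the submitters' processing notes, reads were handled on hg38 with tools that included Bowtie2, Trimmomatic, SAMtools, Picard and MACS2; the settings, including any shift of reads for the transposase, are not given in the sources. The authors deposited 1 peak list per library, with a score, a fold (a ratio over background) and −log10 p and −log10 q values per peak. These are the authors' own values and served only to rank or filter peaks within a list. The lowest −log10 q per list was 2.06 to 2.49. Read counts were not used here, so precision rests on the number of libraries.

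Of 1413185 peaks, 1138 that lay off the autosomes and X were left out, and 1 damaged line was read as chromosome 1. Peaks overlapping by at least 1 bp were merged into regions in Python 3.11.15 (numpy 2.4.6, pandas 2.3.3, scipy 1.17.1, matplotlib 3.10.9). Gene positions came from RefSeq on GRCh38.p14, the hg38 assembly, without exons, so exon, intron and UTR are not stated. Regions called in 3 to 12 libraries, and neighbourhood shares, were tested by exact permutation within time with Benjamini-Hochberg adjustment at 0.05; the code was tested on simulated data. Genes named are the 10 members with every region within 1 kb of an end, every region near them with an unadjusted p under 0.05 for treatment or separated at one time, and the pathway genes with an end called in fewer than 13 libraries or an unadjusted p under 0.05. One marker gene is not reported here. The members and lists were chosen with earlier results of these data known. Alternatives were equal list lengths, −log10 q of at least 5, summit windows of 250 bp either side, peaks covering at least 50% of a region, neighbourhoods of 25 and 100 kb, a replicate block, and left-out libraries.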

Additional observations from a re-analysis of the deposited data

Results flagged for a closer look

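In 30 groups of 4 libraries (10 genes in 3 groups), 3 neighbourhood shares had 1 library far from the other 3, all of them Lgk974 24 h replicate 3, which has the shortest list. Chance gives about 1 such group in 20. The MAVS share was 1.972 called regions per 10000 in that library, against 1.268 to 1.32 in the other 3 of its group. The STING1 share was 1.38, against 0.951 to 0.990. The TLR3 share was 0.197, against 0.423 to 0.440. The part of list length in these values was not tested.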

How the results depend on the processing

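The member counts are small, and each rests on 0 to 3 regions or genes. Shares in brackets are over all regions under the same setting. With lists of equal length, 2 of 34 regions were separated at 48 h (4.08% of all) and 0 of 21 were called more often at 48 h (2.71% of all). Of the 10 gene shares, 1 had an unadjusted p under 0.05 (CGAS, -0.133), where 12.2% of all genes had this. With −log10 q of at least 5, 0 of 41 regions were called more often at 48 h (1.18% of all). Here 1 gene share had such a p (TLR3, -0.175), where 8.35% of all genes had this. Within 25 kb, 0 of 34 regions were called less often with Lgk974 (3.08% of all) and 0 of 55 were separated at 48 h (0.924% of all). Within 100 kb, 3 of 87 regions were called less often with Lgk974 (3.08% of all). There 2 gene shares had such a p (ZBP1, 0.334, and STING1, 0.340), where 8.95% of all genes had this. The replicate block had 7 pairs, 128 assignments and a smallest p of 0.0156. It gave 0 of 46 regions called more often with Lgk974 (0.232% of all), 0 called less often (0.33%) and 0 called more often at 48 h (0.0431%). Under the replicate block the exact p was 0.0625 for the PANK2 region, 0.125 for the region inside ADAR and 0.25 for the lower ZBP1 end. Each was the smallest p its differing pairs allowed, as these all went the same way. None of these regions could thus have had a p under 0.05 in the block. The numbers were not taken to pair the samples, since the labels state no pairing and not every pair correlated over 0.1. Correlations of paired deviations between treatments ran from -0.0321 to 0.146, over 0.1 in 5 of 7 pairs, and 4 of 7 Lgk974 libraries correlated best with their own number. Between times they ran from -0.0254 to 0.260, over 0.1 in 6 of 7 pairs, with 2 of 7 best with their own number. A further setting left out the 3 libraries that stood apart in an earlier look (replicate 3 of Lgk974 24 h, Lgk974 48 h and DMSO 24 h). In it, 2 of 32 regions were called more often with Lgk974 (6.5% of all) and 3 of 64 were separated at 48 h (6.55% of all). Of the 32, 0 were called more often at 48 h (0.952% of all). The MAVS share, lower with Lgk974, was the 1 gene share with an unadjusted p under 0.05, where 9.9% of all genes had this.

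Leaving out 1 library at a time gave 0 to 2 regions called more often with Lgk974 (2 without Lgk974 48 h replicate 3, 0 in 12 other cases), 1 called less often, 0 separated at 24 h, 1 to 3 separated at 48 h, 0 to 1 called more often at 48 h, 0 to 1 called less often at 48 h and 0 to 1 gene shares. These counts are not set beside their shares over all regions, which also changed. For example, 1.65% of all tested regions were called more often with Lgk974 without DMSO 24 h replicate 1, and 2.96% with all libraries.

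Of 230 recomputed gene shares, 199 kept direction and side of the threshold, 24 changed sign (1 of them, MAVS without the 3 libraries, with an exact p of 0.0233) and 7 others passed the threshold. RIGI changed to -0.0829 with −log10 q of at least 5, -0.00296 within 25 kb, -0.0204 within 100 kb and -0.0199 without the 3 libraries. MAVS changed to -0.135 with equal lists, -0.0121 with peaks covering 50% of a region and -0.207 without the 3 libraries. EIF2AK2 changed to -0.0193 within 25 kb and -0.0900 without the 3 libraries, and CGAS to 0.0121 within 25 kb. With 1 library left out, RIGI ran from -0.0380 to 0.0475, MAVS from -0.0792 to 0.0981, EIF2AK2 from -0.0312 to 0.0929 and CGAS from -0.0332 to 0.0120. The causes were not tested. Depth limits all calls, since a region without a peak may be open below a list's threshold.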
